A study of Canis lupus familiaris with 12 samples.

Results

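The genes examined were the enzymes that make serine and pass its carbon to folate, together with the transcription factor ATF4 and its target ASNS, in canine mast cell tumour cells exposed to masitinib. They were chosen by name: PHGDH, PSAT1, PSPH, SHMT1, SHMT2, MTHFD1, MTHFD2, MTHFD1L, ATF4 and ASNS. All 10 genes were found on the array, with 27 probe sets, out of 15115 named genes and 42924 tested probe sets. A gene was described by its brightest probe set, which had the highest average of the 12 arrays, with its other probe sets set beside it.

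The cells were of the line C2, which was derived from a canine mast cell tumour and carries a tandem duplication in KIT that keeps this receptor active. Masitinib is a small molecule that blocks signalling from KIT and from some related kinases. Messenger RNA was measured on Affymetrix Canine Genome 2.0 arrays from cells after 12, 24 and 72 h in 100 nM masitinib (3 arrays for each time) and from the same line before treatment (0 h, also 3 arrays). All groups were a single cell line grown in the same medium with added non-essential amino acids, and nothing in the labels says that arrays came from separate thawings, so the p-values cover no more than the scatter of these arrays. Untreated cultures of later times were not analysed here, so that the drug cannot be told apart from the hours in culture. In such bulk RNA, fewer cells of a type and less RNA per cell are likewise not separated.

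In mammalian cells, serine is made from an intermediate of glycolysis by PHGDH, PSAT1 and PSPH in turn. Serine hydroxymethyltransferases then turn serine into glycine and load the released carbon onto tetrahydrofolate, and the MTHFD enzymes carry that carbon through the oxidation states of folate in mitochondria and cytosol, which feeds the synthesis of purines and thymidylate. ATF4 is the transcription factor of the amino acid and stress response, is controlled largely at translation, and is known in human and mouse cells to drive PHGDH, PSAT1, SHMT2, MTHFD2 and ASNS. The pathway is known for its high expression in dividing and tumour cells.

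The values are the authors' log2 expression values, so that a difference of 1 is a factor of 2. Array medians lay between 5.889 and 5.947, and Pearson's r across probe sets between arrays of the same time was 0.9952 to 0.9979. All 11 measured mast cell markers were above the array median on all 12 arrays. Of them, 1, 7 and 4 rose at 12, 24 and 72 h, where 4.26%, 8.01% and 8.73% of all genes rose. The log2 of the summed signal of the mast cell markers was 16.26 to 16.31 at 0 h and 16.68 to 16.69 at 12 h. It was 16.90 to 16.97 at 24 h and 16.89 to 16.99 at 72 h. The changes of 8 macrophage markers stayed within -0.39 to 0.30 and those of 8 fibroblast markers within -0.08 to 0.59, and 2 and 0 of them lay above the array median on all arrays. At 72 h the T cell markers CD3D and LCK fell (log2 changes of -1.11 and -0.66), as did the epithelial markers EPCAM and KRT18 (-1.54 and -1.15), while CDH1 rose (0.63). CD3D and LCK each fell by 1 of 2 probe sets, with the others at -0.68 and -0.17, and EPCAM by 2 of 3. Of the mast cell markers that rose at 72 h, MITF did so by 3 of 6 probe sets, with the lowest at -0.28, and FCER1A by 2 of 3. The call of CDH1 and those of the mast cell markers FCER1A, MITF and CMA1 at 72 h ended with the poly-A scaling described at the end (0.159, 0.513, 0.488 and 0.415). CDH1 also failed without 0 h replicate 3 (0.583) or 72 h replicate 1 (0.554). The poly-A scaling lowers every change by 0.293 at 12 h and by 0.603 at 24 h. The largest called rise of a mast cell marker was 0.66 at 12 h (MITF) and 1.18 at 24 h (GATA2). With that shift, no call of a mast cell marker at 12 and 24 h would stay above 1.5-fold (0.585). The T cell and epithelial markers called at 72 h are 2 of 7 and 3 of 5 measured, where 11.0% of all genes fell and 8.73% rose. The log2 of the summed signal of the T cell markers was 8.72 to 8.78 at 72 h against 8.99 to 9.15 at 0 h. For the epithelial markers it was 8.03 to 8.07 against 9.18 to 9.27. Such a sum mostly follows the brightest markers. The median log2 value of the epithelial markers was instead higher at 72 h, at 4.96 to 5.2 against 4.44 to 4.48. With 5 markers, this median lay at or near CDH1, a dim marker with a mean log2 value of 4.72. CDH1 was at 4.44, 4.48 and 4.32 at 0 h and at 5.20, 4.97 and 4.96 at 72 h. The higher median is therefore no separate sign beside the rise of CDH1. The median log2 value of the T cell markers was lower, at 5.48 to 5.81 against 5.91 to 6.21. The median of the changes of these 7 markers at 72 h was nevertheless 0.03, and 5 of them did not pass. LCK, EPCAM and KRT18 rose at 12 h (0.59, 0.81 and 0.78), LCK by 1 of its 2 probe sets. The shift of 0.293 from the poly-A scaling would take each of them below 1.5-fold. The part of all these markers in the results below was not tested.

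Masitinib treated cells had less mRNA of these genes at all 3 times. A gene was counted as risen or fallen where the adjusted p from limma over all probe sets was under 0.001 and the change over 1.5-fold. By this rule 4 of the 10 genes fell at 12 h, while 9 did so at 24 h and 8 at 72 h, and 0 rose. Among all 15115 genes, 6.3% fell and 4.26% rose at 12 h, 10.0% fell and 8.01% rose at 24 h, and 11.0% fell and 8.73% rose at 72 h. The median log2 change of the 10 genes was -0.52, -1.49 and -1.32 at 12, 24 and 72 h, where the median of all genes was 0.01, 0.03 and 0.02. For each of the 10 genes, all 3 arrays of every treated time were below all 3 arrays at 0 h, an order that 22.9% of all genes showed at 12 h, 24.8% at 24 h and 26.4% at 72 h. The 3 contrasts share the 0 h arrays and are therefore not independent of each other.

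**Figure D1:**
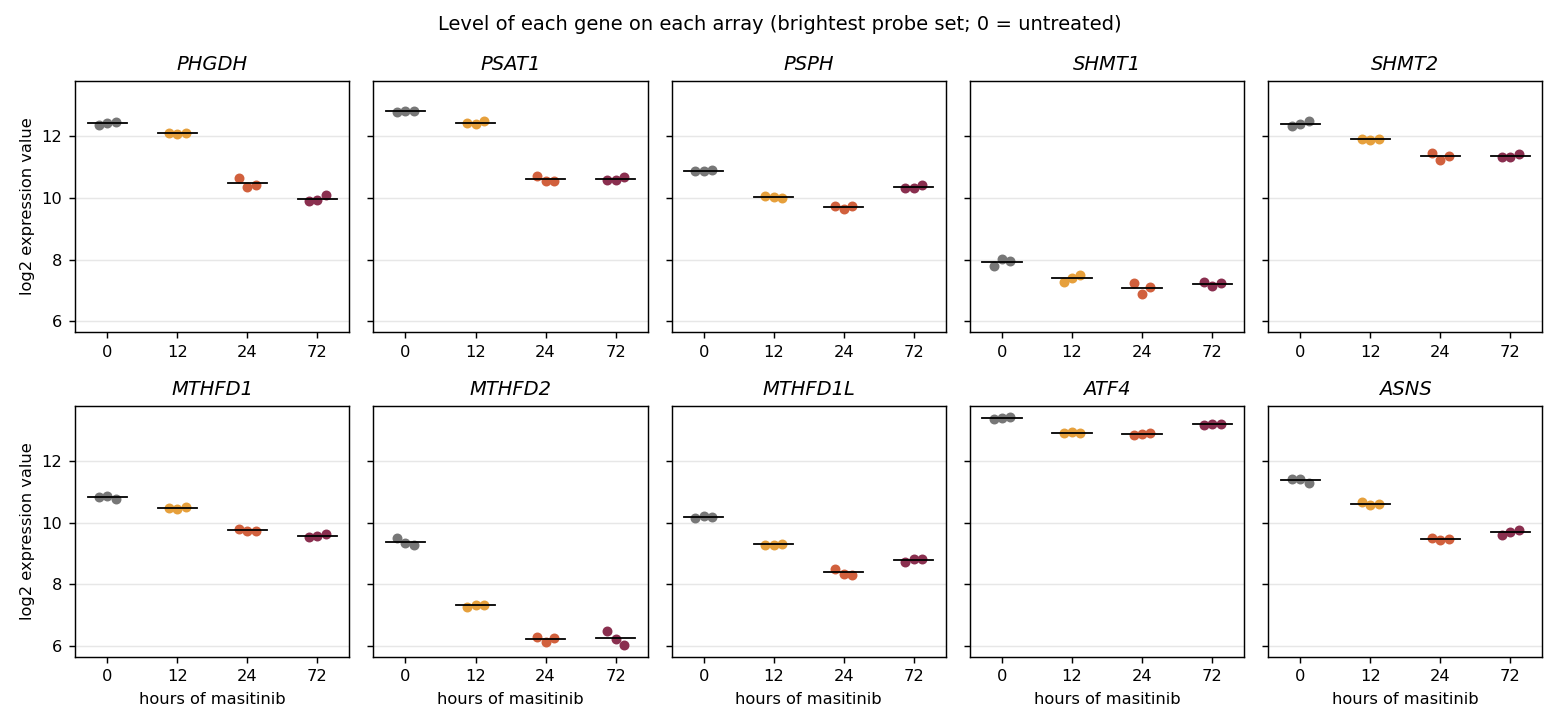
Log2 expression value of each gene's brightest probe set (vertical axis, same scale in all panels) against hours of masitinib (horizontal axis, 0 is untreated), with 1 point per array and a line at the mean of the 3 arrays. In each panel all treated arrays lie below the untreated ones, by the widest margin for MTHFD2, while the drop of ATF4 stays within 0.52.

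The genes of serine synthesis differed in when they fell. PHGDH, the first and committed enzyme, had log2 values of 12.37, 12.45 and 12.48 at 0 h, 12.10, 12.08 and 12.12 at 12 h, 10.66, 10.36 and 10.43 at 24 h, and 9.90, 9.94 and 10.10 at 72 h. The 4 times did not overlap and followed each other downwards. The change was -0.33 at 12 h (SE 0.0818, adjusted p = 0.00782, limma), which did not pass, whereas PHGDH fell by 1.95 at 24 h (adjusted p = 1.15e-09) and by 2.45 at 72 h (adjusted p = 1.25e-10), that is 3.86-fold and 5.46-fold. It held the place of the 129th largest fall among all genes at 72 h.

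PSAT1, the aminotransferase of the second step, behaved in much the same manner up to 24 h. Its values were 12.80, 12.82 and 12.84 at 0 h, 12.45, 12.39 and 12.50 at 12 h, 10.71, 10.56 and 10.55 at 24 h, and 10.60, 10.60 and 10.68 at 72 h. The arrays of 24 and 72 h overlapped, and both lay far below those of 12 h. PSAT1 changed by -0.37 at 12 h (SE 0.0619, adjusted p = 0.00047, limma), short of 1.5-fold, and fell by 2.21 at 24 h (adjusted p = 4.6e-11) and by 2.20 at 72 h (adjusted p = 3.51e-11), or 4.64-fold and 4.58-fold.

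PSPH, the phosphatase that releases free serine, took another course. It had values of 10.87, 10.88 and 10.91 at 0 h, 10.08, 10.03 and 10.01 at 12 h, 9.74, 9.65 and 9.73 at 24 h, and 10.34, 10.31 and 10.41 at 72 h. The arrays of 72 h stood between those of 0 h and those of 12 h. PSPH fell by 0.84 at 12 h (SE 0.0561, adjusted p = 1.86e-07, limma) and by 1.18 at 24 h (adjusted p = 3.47e-09), and its change at 72 h was -0.53 (adjusted p = 4.51e-06), 1.45-fold and thus short of the fold threshold. With arrays scaled to the poly-A controls, described below, PSPH passed at 72 h as well (-1.005), where 4638 of all 15115 genes fell.

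Both serine hydroxymethyltransferases were lower in treated cells, at 24 and 72 h by less than PHGDH and PSAT1. SHMT2, the mitochondrial enzyme, had values of 12.33, 12.41 and 12.49 at 0 h, 11.91, 11.90 and 11.92 at 12 h, 11.45, 11.25 and 11.38 at 24 h, and 11.34, 11.34 and 11.43 at 72 h. Its change was -0.50 at 12 h (SE 0.067, adjusted p = 7.53e-05, limma), not 1.5-fold, and it fell by 1.05 at 24 h (adjusted p = 4.61e-08) and by 1.04 at 72 h (adjusted p = 4.44e-08). The 24 and 72 h arrays of SHMT2 overlapped.

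SHMT1, the cytosolic enzyme, had the smallest fall among the members that passed at 24 h, and again at 72 h. Its values were 7.80, 8.03 and 7.95 at 0 h, 7.28, 7.39 and 7.50 at 12 h, 7.24, 6.88 and 7.12 at 24 h, and 7.26, 7.13 and 7.23 at 72 h. The untreated arrays stood apart, while the arrays of 24 and 72 h overlapped. SHMT1 changed by -0.54 at 12 h (SE 0.0967, adjusted p = 0.000827, limma), again short of 1.5-fold, and fell by 0.85 at 24 h (adjusted p = 1.1e-05) and by 0.72 at 72 h (adjusted p = 4.22e-05).

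Of the folate enzymes, MTHFD2 had the largest change of all 10 genes at each time. It is the mitochondrial dehydrogenase and cyclohydrolase, known in adult human and mouse tissues for low expression outside dividing cells. The values of MTHFD2 were 9.49, 9.35 and 9.26 at 0 h, 7.27, 7.33 and 7.32 at 12 h, 6.28, 6.11 and 6.25 at 24 h, and 6.48, 6.22 and 6.01 at 72 h. The 12 h arrays were well apart from both sides, and the arrays of 24 and 72 h overlapped, with a wider spread at 72 h (SD 0.236) than at the other times. MTHFD2 fell with changes of -2.06 at 12 h (SE 0.104, adjusted p = 2.27e-08, limma), -3.15 at 24 h (adjusted p = 1.6e-10) and -3.13 at 72 h (adjusted p = 1.24e-10), which is 4.17-fold, 8.91-fold and 8.75-fold. Its fall was the 11th largest of all genes at 12 h, the 54th at 24 h and the 68th at 72 h.

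MTHFD1L, the mitochondrial synthetase that frees formate for the cytosol, fell at all 3 times. It had values of 10.15, 10.23 and 10.17 at 0 h, 9.28, 9.28 and 9.31 at 12 h, 8.50, 8.32 and 8.31 at 24 h, and 8.71, 8.81 and 8.82 at 72 h. No 2 times overlapped, and the 24 h arrays were the lowest. The falls were by 0.89 at 12 h (SE 0.0648, adjusted p = 4.1e-07, limma), by 1.80 at 24 h (adjusted p = 3.19e-10) and by 1.40 at 72 h (adjusted p = 2.19e-09).

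MTHFD1, the cytosolic enzyme that takes up formate and returns it to folate, passed the test later. Its values were 10.83, 10.86 and 10.78 at 0 h, 10.48, 10.43 and 10.50 at 12 h, 9.78, 9.72 and 9.74 at 24 h, and 9.53, 9.57 and 9.64 at 72 h. The times followed each other downwards without overlap. MTHFD1 changed by -0.36 at 12 h (SE 0.0561, adjusted p = 0.000306, limma), less than 1.5-fold, and fell by 1.08 at 24 h (adjusted p = 7.36e-09) and by 1.24 at 72 h (adjusted p = 1.72e-09).

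ATF4 itself was the only member that passed at none of the times. ATF4 had values of 13.37, 13.41 and 13.43 at 0 h, 12.92, 12.94 and 12.90 at 12 h, 12.86, 12.87 and 12.92 at 24 h, and 13.18, 13.19 and 13.21 at 72 h. All treated arrays were below the untreated ones, those of 72 h by the least. The changes were -0.48 at 12 h (SE 0.0517, adjusted p = 1.17e-05, limma), -0.52 at 24 h (adjusted p = 3.06e-06) and -0.21 at 72 h (adjusted p = 0.0052), so that the fold threshold was missed at each time and the p threshold at 72 h as well. The array measures the mRNA of ATF4 and says nothing of its protein. With arrays scaled to the poly-A controls, described below, ATF4 passed at all 3 times (-0.775, -1.123 and -0.681). Under that scaling, 2168, 7076 and 4638 of all 15115 genes fell at 12, 24 and 72 h.

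ASNS, which makes asparagine from aspartate and glutamine and is a standard readout of ATF4 activity, fell throughout. Its values were 11.42, 11.43 and 11.29 at 0 h, 10.67, 10.58 and 10.59 at 12 h, 9.51, 9.43 and 9.48 at 24 h, and 9.61, 9.69 and 9.75 at 72 h. The times did not overlap, with the lowest arrays at 24 h. ASNS fell by 0.77 at 12 h (SE 0.0637, adjusted p = 1.22e-06, limma), by 1.91 at 24 h (adjusted p = 1.71e-10) and by 1.70 at 72 h (adjusted p = 3.26e-10), or 1.70-fold, 3.75-fold and 3.25-fold.

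**Figure D2:**
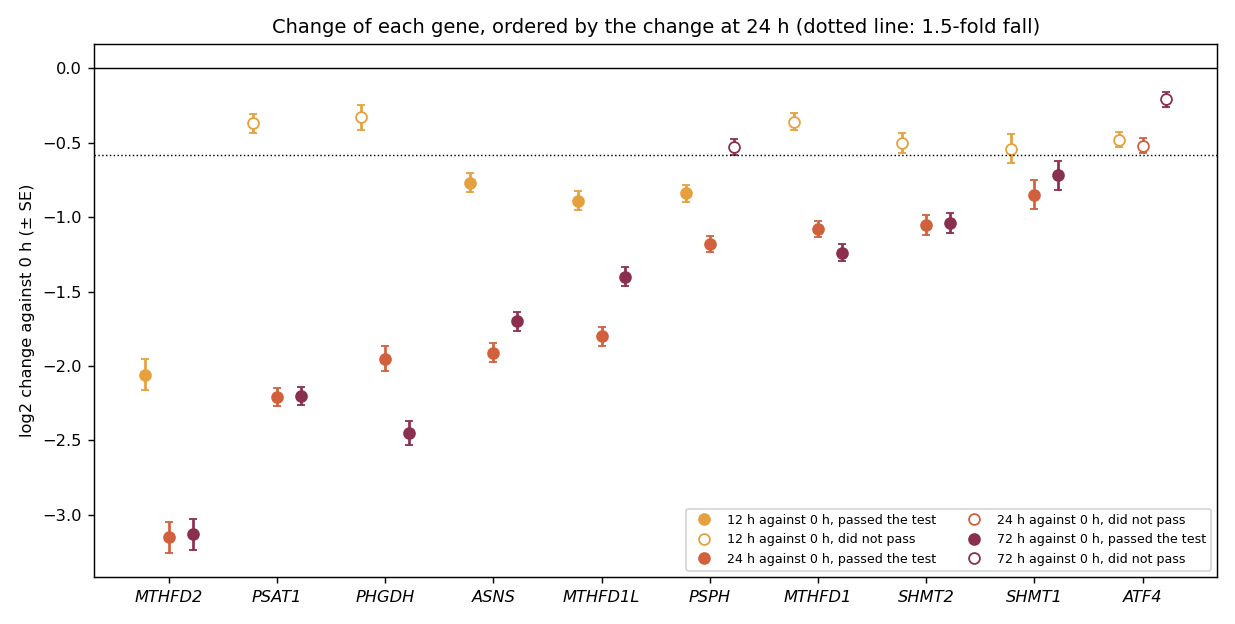
Log2 change of each gene's brightest probe set against 0 h (vertical axis, with the standard error from limma as bars) at 12, 24 and 72 h, ordered by the change at 24 h. Filled points passed the test and open points did not. MTHFD2 stands lowest with -3.15 at 24 h, and ATF4 stays above the dotted line of a 1.5-fold fall at all times.

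The arrays were also compared between treated times, since the changes in these contrasts do not use the 0 h arrays. Their SE and p-values still do, through the estimate of spread that all 12 arrays share. Between 12 and 24 h a further 6 of the 10 genes fell, namely PSAT1 (-1.84), PHGDH (-1.62), ASNS (-1.14), MTHFD2 (-1.10), MTHFD1L (-0.91) and MTHFD1 (-0.72), where 3.1% of all genes fell and 1.41% rose. The adjusted p values (limma) of these 6 genes were at most 9.83e-06. PSPH, SHMT1, SHMT2 and ATF4 changed by -0.33, -0.31, -0.55 and -0.04 and did not pass.

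Between 24 and 72 h only PSPH passed, and it rose by 0.64, or 1.56-fold (SE 0.0561, adjusted p = 6.59e-06, limma), against 1.96% of all genes that rose and 1.81% that fell. MTHFD1L (0.40, adjusted p = 0.000758) and ATF4 (0.31, adjusted p = 0.000941) were also higher at 72 h than at 24 h and PHGDH was lower (-0.50, adjusted p = 0.000813), all of them short of 1.5-fold. For PSAT1 the change was 0.02 with a 95% interval of -0.12 to 0.15, for MTHFD2 0.03 with an interval of -0.20 to 0.25, and for SHMT1 0.13 with an interval of -0.08 to 0.34. From 12 to 72 h, 5 genes fell (PHGDH, PSAT1, MTHFD2, ASNS and MTHFD1), where 5.51% of all genes fell and 4.8% rose.

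Most of the other probe sets followed the brightest. Of all 27 probe sets, 12 fell at 12 h, and later 22 (24 h) and 21 (72 h) did, where 5.05%, 8.66% and 9.39% of all tested probe sets fell at these times. The 5 probe sets of PHGDH all fell at 24 h, with changes of -2.29 to -1.90, and all fell at 72 h, with -2.72 to -2.41. For PSAT1 the dimmer probe sets changed more than the brightest, by -3.14 and -2.74 at 24 h, and both already passed at 12 h (-0.71 and -0.74), when the brightest did not. The other probe set of SHMT2 likewise passed at 12 h (-0.73). The 3 probe sets of ASNS fell at all 3 times, with changes of -1.97 to -1.89 at 24 h.

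The second probe set of PSPH fell at 12 h (-0.76) and 24 h (-0.89) and was 0.58 higher at 72 h than at 24 h, just short of 1.5-fold. For MTHFD2 a second probe set fell, with -2.19, -3.45 and -3.22 at 12, 24 and 72 h, while the dimmest with a mean log2 value of 2.84 changed by 0.05, -0.03 and -0.06. Of the 5 probe sets of MTHFD1, 3 fell at 24 h and 4 at 72 h, and the dimmest, at a mean of 4.14, changed by 0.05 at 24 h. The other probe set of MTHFD1L, at a mean of 5.15, changed by -0.42, -0.20 and 0.11 and did not pass. Its direction between 12 and 72 h was opposite to that of the brightest, at 0.53 against -0.51. The probe sets that changed little were those with the lowest mean level of their gene. SHMT1 and ATF4 had 1 probe set each.

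**Figure D3:**
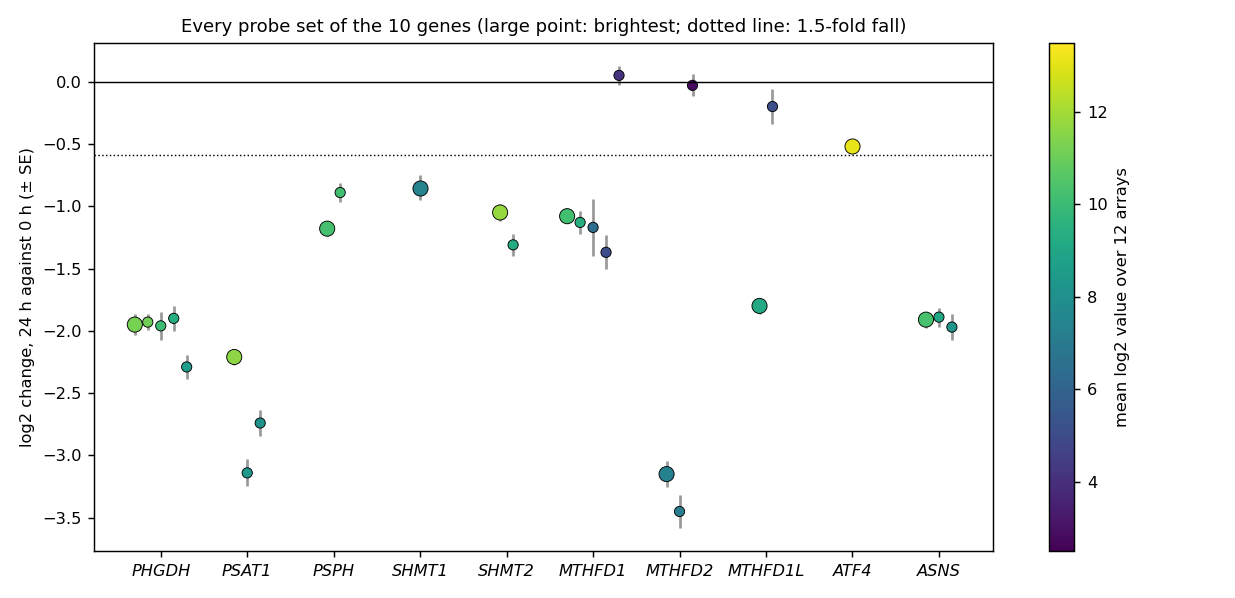
Log2 change at 24 h against 0 h (vertical axis, standard error from limma as bars) for all 27 probe sets, grouped by gene, with the brightest of each gene as a large point and colour giving the mean log2 value over the 12 arrays. The 3 points near 0 are dim probe sets of MTHFD1, MTHFD2 and MTHFD1L, with mean values of 4.14, 2.84 and 5.15.

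Among 15 measured genes of other enzymes and carriers of folate, 2, 4 and 3 fell at 12, 24 and 72 h and 0 rose, where 6.3%, 10.0% and 11.0% of all genes fell, with median log2 changes of -0.08, -0.17 and -0.12. SLC25A32, which carries folate into mitochondria, had values of 7.79, 8.05 and 8.13 (12 h), 7.23, 7.53 and 7.56 (24 h) and 8.02, 7.85 and 7.58 (72 h), all below its 9.14, 9.16 and 8.97 at 0 h. SLC25A32 fell, with changes of -1.10, -1.65 and -1.27 (SE 0.127). Of its 3 probe sets, 1 fell at 12 h and 2 at 24 and 72 h, and the least changed was at -0.05, -0.03 and -0.02. TYMS, the thymidylate synthase that uses the carbon unit from folate for DNA synthesis, fell by 1.36 at 24 h and by 1.07 at 72 h (SE 0.0559). MTRR, which reactivates methionine synthase, fell by 1.00 at 72 h, but another of its probe sets was 0.43 higher.

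The genes that use serine and glycine moved in both directions. Of 17 measured, there were 1, 4 and 3 rises and 2, 3 and 4 falls at 12, 24 and 72 h. Among all genes, 4.26%, 8.01% and 8.73% rose and 6.3%, 10.0% and 11.0% fell at these times. CTH, the last enzyme of the route by which serine carbon reaches cysteine, fell at all 3 times, 2.83-fold, 5.16-fold and 4.96-fold, although 2 of its 4 probe sets did not fall. SFXN1, a carrier of serine into mitochondria, changed by -0.41 at 12 h and fell by 1.07 at 24 h and by 1.43 at 72 h (SE 0.0991). GCSH, the lipoyl protein of the glycine cleavage system, fell (-0.79, -1.43 and -1.25, SE 0.0651), whereas AMT, the aminomethyltransferase of the same system, rose by 0.74, 1.15 and 1.36 (SE 0.0798). With poly-A scaling the calls of AMT at 12 and 24 h ended (0.446 and 0.543). GLDC, the decarboxylase of this system, named after its values were seen, changed by -0.10 at 12 h and rose by 1.53 at 24 h and by 1.09 at 72 h (SE 0.102).

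Genes known as targets of ATF4 in human and mouse cells were counted as those for synthesis and transport of amino acids and those for regulation and stress. Of 15 measured genes for synthesis and transport, 7, 7 and 8 fell at 12, 24 and 72 h and 0 rose. Among all genes, 6.3%, 10.0% and 11.0% fell and 4.26%, 8.01% and 8.73% rose. The medians of the list were -0.30, -0.46 and -0.61. CTH belongs to this list too. SLC1A4, a carrier of neutral amino acids that include serine, fell (-1.57, -2.25 and -1.67, SE 0.0778), PYCR1, the last enzyme of proline synthesis, did too (-0.76, -1.12 and -1.05, SE 0.0882), and SLC7A1, a carrier of arginine and lysine, as well (-0.87, -0.72 and -0.94, SE 0.0977). PYCR1 fell by 1 of its 2 probe sets at 12 and 24 h, and SLC7A1 by 2 of its 3 at each time. Even the brightest probe set of SLC7A1 was dim, with a mean log2 value of 5.59, below the array medians of 5.889 to 5.947.

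Of 13 measured regulatory and stress genes, there were 4, 3 and 4 rises and 2, 1 and 0 falls at 12, 24 and 72 h. Among all genes, 4.26%, 8.01% and 8.73% rose and 6.3%, 10.0% and 11.0% fell at these times. NUPR1, a small chromatin-associated stress protein, had values of 12.19, 12.13 and 12.15 at 12 h, 12.28, 12.23 and 12.28 at 24 h, and 12.36, 12.43 and 12.46 at 72 h, against 10.60, 10.62 and 10.63 at 0 h. It rose by 1.54, 1.65 and 1.80 (SE 0.0535). PPP1R15A, the subunit that directs dephosphorylation of eIF2, rose by 0.81, 1.22 and 1.46 (SE 0.101), though by 1 of its 5 probe sets only, and the call at 12 h ended with poly-A scaling (0.513). VLDLR, a lipoprotein receptor, rose by 0.74, 1.14 and 0.77 (SE 0.0667), at 12 and 72 h by 1 of its 3 probe sets only, and with arrays scaled to the poly-A controls it passed at no time (0.45, 0.54 and 0.296). DDIT3, which encodes the stress factor CHOP, changed by 0.48 and 0.50 and rose by 0.65 at 72 h (SE 0.0778). That call of DDIT3 ended with poly-A scaling (0.174) and without 0 h replicate 1 (0.558).

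Among all genes, 6.3%, 10.0% and 11.0% fell and 4.26%, 8.01% and 8.73% rose at 12, 24 and 72 h. Upstream of ATF4, 6, 5 and 7 of 16 genes fell and 0, 0 and 1 rose at these times. Those that fell most at 72 h were subunits of the initiation factor eIF2 and of its exchange factor eIF2B: EIF2S1 (-1.41), EIF2B1 (-1.25), EIF2S2 (-0.90) and EIF2B3 (-0.85). All 4 fell at 12 and 24 h as well, with changes of -1.31 (EIF2B1 at 24 h) to -0.88 (EIF2S2 at 12 h). For EIF2B1, 2 of 3 probe sets fell and for EIF2B3 2 of 4, with the highest of EIF2B3 at 0.22, 0.37 and 0.32. Of 9 measured genes around asparagine, aspartate and glutamine, 4, 4 and 3 fell and 1, 1 and 0 rose, beside the same shares of all genes. ADSL, an enzyme of purine synthesis, fell (-1.19, -1.51 and -1.45, SE 0.0692), GFPT1, which begins hexosamine synthesis with glutamine, fell (-0.72, -0.68 and -0.84, SE 0.0563), and the asparaginase ASRGL1 fell by 0.66 at 72 h, by 1 of its 2 probe sets.

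**Figure D4:**
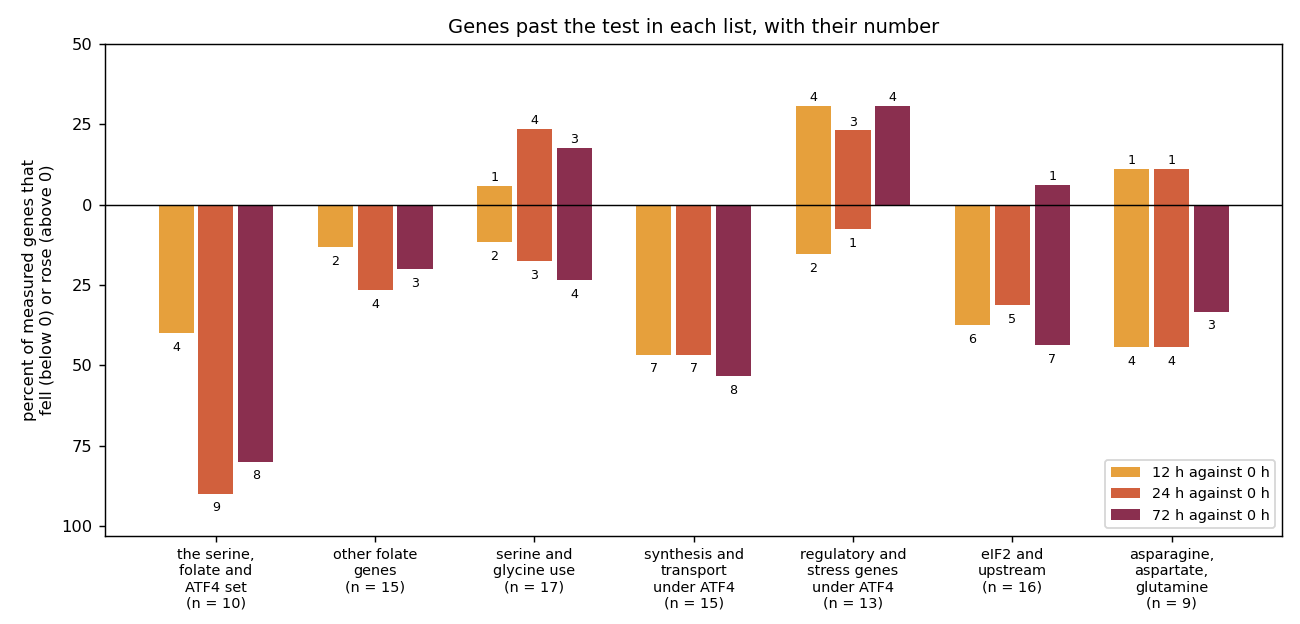
Percent of the measured genes of each list (n under its name) that rose, drawn upwards, or fell, drawn downwards, at 12, 24 and 72 h against 0 h, with the number of genes at each bar. The 10 genes described here reached 9 falls at 24 h, when 10.0% of all genes fell. The regulatory and stress genes under ATF4 had at least 3 rises at each time, where 4.26% to 8.73% of all genes rose.

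The genes whose changes at the 3 times were nearest to those of MTHFD2, by the root mean square difference of the log2 changes over 12, 24 and 72 h, were ORC1 (0.17), CDC45 (0.221), MCM2 (0.249), ATAD5 (0.278) and POLE2 (0.304). ORC1, a subunit of the complex that marks replication origins, had values of 8.96, 8.96 and 9.03 (12 h), 7.63, 7.35 and 7.49 (24 h) and 7.77, 7.46 and 7.90 (72 h), against 10.96, 10.88 and 10.83 at 0 h. Its changes of -1.91, -3.40 and -3.18 stood beside -2.06, -3.15 and -3.13 for MTHFD2. The likeness rests on 3 changes that share the 0 h arrays and is given as a description.

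The added poly-A control transcripts, which are put into the RNA before labelling, bear on the level that these changes are set against. Their 36 probe sets were 0.293, 0.603 and 0.471 higher at 12, 24 and 72 h than at 0 h on the log2 scale, and the amount added per cell is not given in the sources used here. When arrays were shifted to equal poly-A signal, the median change of all genes became -0.282, -0.57 and -0.448, and falls made up 88.6%, 95.8% and 89.6% of all calls at 12, 24 and 72 h, against 59.7%, 55.5% and 55.8% without it. All 10 genes then counted as fallen at 12 h, where 2168 of all 15115 genes fell. At 24 and 72 h, 7076 and 4638 of all genes fell with this scaling. As signs of RNA quality, the 3' probe sets exceeded the 5' ones by 0.963 to 1.68 for actin and by 0.234 to 0.512 for GAPDH over the 12 arrays.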

How the data were processed

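C2 cells were measured on 12 arrays, with 3 arrays at 0 h and 3 at each of 12, 24 and 72 h of 100 nM masitinib. The authors processed the scanned arrays with the gcRMA workflow of Partek Genomics Suite (background correction, quantile normalization, median polish) and deposited log2 values for each probe set on each array. Partek and RMA are also the tools in the submitters' processing notes. Quantile normalization gives all arrays nearly the same distribution and so removes a shift common to most transcripts.

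After 111 control probe sets were set apart, 42924 probe sets were fitted in R 4.3.3 with limma 3.58.1 (lmFit and eBayes, 1 coefficient per time, all 12 arrays), and p-values were adjusted over all of them by the Benjamini-Hochberg method. Thresholds followed the methods of the study (0.001 and 1.5-fold). Symbols came from the platform annotation, with 27680 updated through the Entrez identifier to the assembly UU_Cfam_GSD_1.0; 29254 probe sets had 1 symbol, 439 several and 13231 none. Tables and figures were made in Python 3.11.15.

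The members, the other lists and the tests were chosen with earlier results of these data known. Besides the members, from each other list up to 4 called genes that changed most at 72 h, the 5 genes nearest to MTHFD2 and called cell type markers were named, with GLDC added after its values were seen. Some genes of the other lists are not reported here, and counts are over the measured genes. Precision is limited by the number of arrays (median residual SD 0.1124). The steps were tested on simulated data. Alternatives covered the test, arrays fitted, thresholds, dim probe sets, scaling, probe set per gene, leaving out each array, and a block for the replicate number.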

Additional observations from a re-analysis of the deposited data

Results flagged for a closer look

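Changes that differed between treated times by limma's test were those of PSAT1 (-1.84), PHGDH (-1.62), ASNS (-1.14), MTHFD2 (-1.10), MTHFD1L (-0.91) and MTHFD1 (-0.72), in log2, at 24 h against 12 h, and that of PSPH (0.64) at 72 h against 24 h. Outside the main measurement, the added poly-A controls were higher in treated cells than at 0 h, by 0.293 at 12 h, 0.603 at 24 h and 0.471 at 72 h on the log2 scale. Groups of 3 arrays are too small to look for single arrays that stand apart.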

How the results depend on the processing

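Of the 10 genes, 4 passed at 12 h against 0 h, and 1 did with a 2-fold threshold and 9 with no fold threshold. Scaling to the poly-A controls gave 10, and the probe set of largest change gave 7. With the poly-A scaling, 2168 of all 15115 genes fell at 12 h. Counts over all genes were not taken with the other thresholds or the probe set of largest change. Of the 10 genes, 1 passed at 72 h against 24 h, with 0 at 2-fold and 4 with no fold threshold (3 rose, 1 fell). At 72 h against 12 h, 5 passed, with 3 at 2-fold and 8 with no fold threshold (1 rose, 7 fell). With 1 array left out, the counts were 4 to 4, 9 to 9 and 8 to 8 at 12, 24 and 72 h against 0 h, 6 to 7 at 24 h against 12 h (SHMT2 passed without 24 h replicate 1), 1 to 1 at 72 h against 24 h and 5 to 5 at 72 h against 12 h.

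Of 750 comparisons of a member's change against 0 h with its value under an alternative, 724 kept direction and call, 5 lost the call, 21 gained it and 0 turned sign. Many alternatives leave the log2 change as it was by design, so that no sign could turn in them. These are the other tests, thresholds, the fit of only the arrays compared, the dim filter, the block and leaving out an array of another time. Nor could a looser threshold lose a call. The same holds for the tallies that follow. Between treated times, 719 of 750 kept both and 11 turned sign. The sign turned, without a call in either, for PSAT1 at 72 h against 24 h (0.019) with the probe set of largest change (-0.085), the mean of its probe sets (-0.04) or 1 array left out (-0.008 to 0.07). It turned for SHMT2 (0.009, with a range of -0.045 to 0.052) and MTHFD2 (0.026, with -0.097 to 0.139) at the same times with 1 array left out. For MTHFD1L at 72 h against 12 h (-0.511) it turned with the probe set of largest change (0.53) and with the mean of both (0.009). Calls of MTHFD1 and MTHFD1L at 24 h against 12 h ended with the mean of their probe sets (-0.451 and -0.342). Of 2249 such comparisons for the other named genes against 0 h, 2168 kept direction and call, 68 lost the call, 11 gained it and 2 turned sign, namely for DDIT3 at 24 h with poly-A scaling (-0.106 for 0.497) and for ASRGL1 at 12 h with 1 array left out (-0.164 to 0.056, for -0.057).

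Arrays share replicate numbers across times, but same-numbered arrays had residual correlations of -0.329 to 0.411, with 5 of 18 pairs over 0.1 and 4 of 12 arrays closest to their own number. With the replicate number as a block the counts of members that passed were 4, 9, 8, 6, 1 and 5 in the contrasts above and changed no call of a member. The block ended the call of MTRR at 24 h against 0 h (-0.758). Probe sets with a low signal, such as those of MTHFD2 at 2.84 and MTHFD1 at 4.14, can show little of a fall, which was not tested here. Another probe set of MTHFD1, at a mean of 5.08, fell at 12, 24 and 72 h (-1.16, -1.37 and -1.60).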
